A study of Chenopodium quinoa with 15 samples.

Results

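Roots and leaves of quinoa (Chenopodium quinoa, variety NL-6) seedlings were compared by RNA sequencing, with 3 root libraries against 3 leaf libraries, 6 of the 15 libraries of the series. The libraries were chosen by their sample labels alone. Root replicates pooled the roots of several untreated seedlings that were 2 days old in the sample labels and 3 days old in the series text, and that the methods of the study give as grown on half-strength MS medium in the dark. Leaf replicates pooled all vegetative leaves of several seedlings that were 14 days old, untreated by their labels and given water as salt controls by the protocol, and that had been grown in soil, with 14 h of light per day in the labels. The labels name no mutation, transgene or salt treatment for either group. The labels put the growth in the dark at 25 °C, and the methods of the study name another temperature and another day length, so it is not clear whether temperature differed as well. The organs thus also differ in age, light and growth medium, and these, with any difference in temperature, cannot be told apart from the organ in any value given here. In pooled organs, fewer cells of a type and less RNA per cell cannot be told apart either.

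A leaf carries out photosynthesis: light-harvesting complexes feed the photosystems of the thylakoid membrane, and the Calvin cycle in the stroma fixes carbon dioxide with the enzyme Rubisco. A seedling root takes up water and mineral ions, is fed with sugar by the rest of the plant and grows from a meristem at its tip. Its endodermis and outer layers lay down lignin and suberin, and its surface meets soil microbes. Quinoa is a halophyte with a tetraploid genome, so that most genes exist as a copy in each of the ancestral genomes.

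Counted reads per library were 15544918 to 17019602 in leaf and 14031146 to 16603269 in root, and 34267 to 34708 genes in leaf and 37101 to 37627 genes in root had at least 1 read, of 58522 annotated genes. The 100 genes with the most reads took 24.2% to 26.1% of the counted reads in a leaf library and 9.50% to 10.1% in a root library. TMM scaling, which sets the libraries to a common level for the bulk of the genes, gave factors of 0.766 to 0.779 for leaf and 1.26 to 1.32 for root. Levels are given as CPM, the reads of a gene scaled to the TMM-corrected size of its library, and a positive log2 fold change means a higher level in root. Errors of levels are SD over 3 libraries. Errors of log2 fold changes are approximate SE, taken as the absolute log2 fold change over the square root of the test's F statistic. For genes with few reads in an organ they can be smaller than the counting error, and so understate the uncertainty. The replicate number limits the precision, and counting intervals cover counting error only.

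Most tested genes differed between the organs. Of 32513 genes that passed the read filter, 12664 (39.0%) were called higher in root and 11607 (35.7%) higher in leaf at an adjusted p under 0.05 in edgeR's quasi-likelihood test. Where the log2 fold change also had to reach 1, 8142 genes (25.0%) were higher in root and 7700 (23.7%) higher in leaf. The median log2 fold change of all tested genes was 0.05. The split rests on the scaling: with the total library size in place of TMM the median became 0.79, 20064 genes were higher in root and 6828 in leaf, and 940 genes called higher in leaf were called higher in root. Counts of list members are read against 39.0% and 35.7%. In 25254 tested genes (77.7%) the root and leaf libraries did not overlap, so a lack of overlap in a named gene was the usual case. A gene read in 1 organ alone passes the filter through that organ, and had to differ there, so the number of tested members of a list is given beside the number listed, and a count over the tested members is not one over the list.

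**Figure D1:**
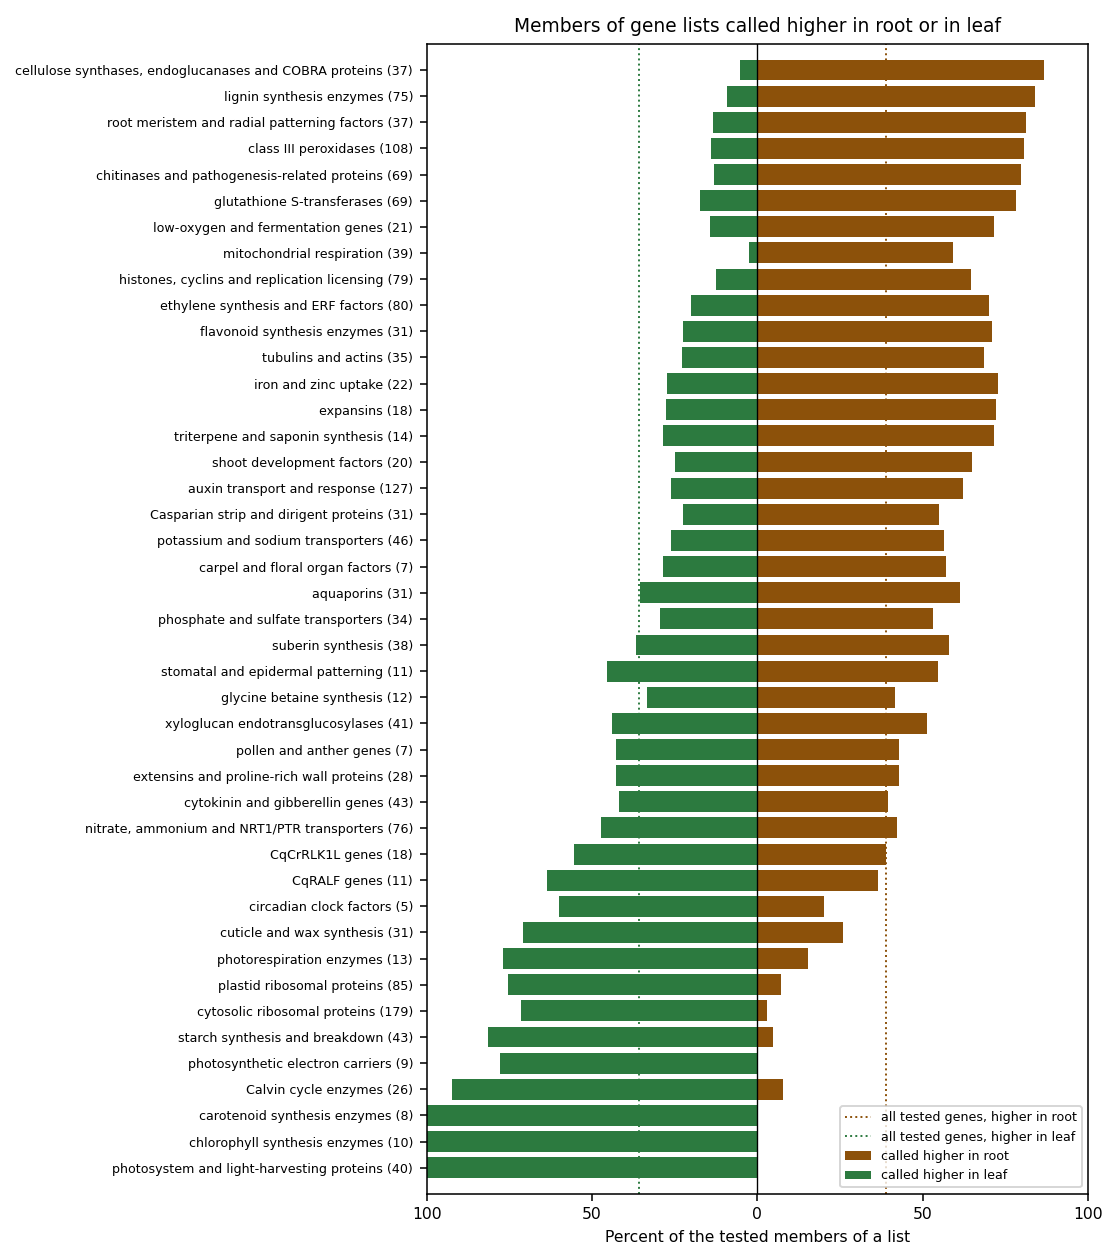
Percent of the tested members of each gene list called higher in root (brown, to the right) or higher in leaf (green, to the left), with the number of tested members in parentheses, for lists with at least 5 tested members. Dotted lines mark all tested genes, 39.0% higher in root and 35.7% higher in leaf. The photosynthesis lists lie at the bottom with all or most members higher in leaf, and cellulose, lignin, root meristem and peroxidase lists lie at the top.

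Leaf libraries carried the photosynthesis markers of leaf, while the stomatal and shoot development lists were called in both directions. The root marker lists had more members higher in root than in leaf. Of the list of photosystem and light-harvesting proteins, 45 genes, 40 of 40 tested genes were higher in leaf and 0 in root, and their reads summed to 5.19% to 5.97% of a leaf library and 0.00365% to 0.00396% of a root library. Among stomatal genes, a FAMA-like factor, the regulator of the last division of a guard cell precursor in Arabidopsis, stood at 8.26, 6.25 and 5.91 CPM in leaf against 0 in each root library (CqNL-6_031505, at least 131-fold higher in leaf). The guard cell anion channel SLAC1 had 7.26, 6.86 and 7.14 CPM in leaf against 0.164, 0 and 0 in root (CqNL-6_012346, a ratio of 137 with a 95% counting interval of 46.4 to 668). Both were thus nearly unread in every root library, and no root library overlapped a leaf library. The S-type anion channels titled SLAH went the other way: CqNL-6_028949, an SLAH1-like channel, had 34.1, 41.4 and 42.6 CPM in root against 0, 0.0762 and 0 in leaf, and CqNL-6_036963, an SLAH2-like channel, had 61.8, 68.2 and 74.8 CPM in root against 6.01, 16.2 and 14.4 in leaf (log2 fold change 2.48 ± 0.23, adjusted p = 1.06e-07). Of the 11 tested genes of the stomatal list, which holds 21, 5 were higher in leaf and 6 in root, and all 6 were SLAH channels. FAMA and EPIDERMAL PATTERNING FACTOR titles made up the rest of the leaf side.

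Shoot development factors were called in both directions: 13 of 20 tested genes, from 33 listed, were higher in root and 5 in leaf. The axial regulator YABBY 2, which marks the lower side of leaf primordia in Arabidopsis, had 19.1, 17.4 and 23.3 CPM in leaf against 0 in each root library (CqNL-6_019045, at least 385-fold higher in leaf, adjusted p = 3.11e-11). TCP17, a factor of leaf growth, had 17.4, 14.3 and 19.3 CPM in leaf against 0 in each root library (CqNL-6_005407). These genes had no read in any root library. Homeobox protein knotted-1-like 3 was higher in leaf with 100.4 ± 1.64 CPM in leaf against 7.58 ± 1.18 in root (CqNL-6_039675, log2 fold change -3.73 ± 0.13, adjusted p = 6.15e-13). On the root side were the title knotted-1-like 6, with 14.4, 16.8 and 21.6 CPM in root against 0 in each leaf library for CqNL-6_012988, the boundary factor CUP-SHAPED COTYLEDON 1, with 2.62, 2.29 and 2.86 CPM in root against 0 in each leaf library for CqNL-6_005509, and growth-regulating factors. Knotted-1-like 6 and CUP-SHAPED COTYLEDON 1 were unread in leaf. TCP17, knotted-1-like 6, CUP-SHAPED COTYLEDON 1, FAMA and the factors of the next paragraph other than JACKDAW and GLABRA 2 lie outside the naming rule and were named after their values were seen.

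Root meristem and radial patterning factors were mostly higher in root. Of the 56 genes of this list, 30 of 37 tested genes were higher in root and 5 in leaf, and the median log2 fold change of the tested members was 3.75 (3.42 with genes at 0 reads at their bound). Of the 37, 11 had 0 reads in leaf and so could pass the filter only through root. SCARECROW, which patterns the endodermis and the stem cell niche in Arabidopsis, had 24.3, 24.2 and 26.05 CPM in root against 10.3, 8.31 and 8.52 in leaf (CqNL-6_032619, log2 fold change 1.46 ± 0.13, adjusted p = 5.26e-08). An AP2-like factor AIL6 had 23.00, 25.9 and 21.3 CPM in root against 1.84, 1.52 and 1.84 in leaf (CqNL-6_011294, log2 fold change 3.75 ± 0.17, adjusted p = 1.69e-11). Every root library lay above every leaf library for both genes, although leaf held reads of each. WUSCHEL-related homeobox 5-like, the marker of the quiescent centre in Arabidopsis, was read at a low level and in root alone, with 0.601, 0.915 and 0.56 CPM in root against 0 in each leaf library (CqNL-6_010059, 41 reads in root and 0 in leaf). The root cap factor BEARSKIN1 had 4.37, 3.71 and 2.97 CPM in root against 0 in each leaf library (CqNL-6_029021), and LOB domain-containing protein 16-like, a factor of lateral root initiation, had 3.06, 2.29 and 4.99 CPM in root against 0 in each leaf library (CqNL-6_014701). All were unread in leaf. Against the majority, the zinc finger protein JACKDAW on chromosome 1 was higher in leaf, with 49.5 ± 2.02 CPM in leaf against 11.7 ± 0.749 in root (CqNL-6_016804, log2 fold change -2.08 ± 0.11, adjusted p = 1.04e-10). GLABRA 2, a factor that specifies hairless cells of the root epidermis and leaf hairs in Arabidopsis, was higher in root in both tested copies of the 3 listed, with 9.23, 9.66 and 11.5 CPM in root against 0.501, 1.07 and 0.154 in leaf for CqNL-6_035138 and 8.79, 9.52 and 11.3 CPM in root against 0.918, 2.06 and 0.845 in leaf for CqNL-6_007853. Of Casparian strip and dirigent proteins 17 of 31 tested genes, from 40 listed, were higher in root and 7 in leaf. Of the 31, 6 had 0 reads in leaf and could pass the filter only through root. The list was led by CASP-like protein Ni6 with 40.4, 45.2 and 53.2 CPM in root against 0, 0.229 and 0.461 in leaf (CqNL-6_055150, log2 fold change 7.57 ± 0.30, adjusted p = 3.01e-12). CASP-like protein 5B3 had 10.7 ± 1.11 CPM in leaf against 6.27 ± 0.181 in root (CqNL-6_055533, log2 fold change -0.77 ± 0.15, adjusted p = 0.000305), a call lost with the total library size at -0.02.

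Lists of seed, pollen and flower genes had few tested members. Of 20 genes of seed reserves and the glyoxylate cycle 3 were tested, and their reads summed to at most 0.0565% of a library. Both members called higher in root were titled dehydrin 1, a protein of drying or stressed tissue: CqNL-6_026803 had 209.7, 261 and 325 CPM in root against 36.1, 48.3 and 50.3 in leaf and CqNL-6_039449 had 107, 99.5 and 123 CPM in root against 8.01, 9.75 and 11.1 in leaf. Isocitrate lyase, which serves the use of stored fat in seedlings, did not pass the test. Of the 14 pollen and anther genes 3 of 7 tested genes were higher in root and 3 in leaf, and both of the highest were titled pollen-specific leucine-rich repeat extensin-like protein 1, with 280.2 ± 72.99 CPM in root against 12.1 ± 1.57 in leaf for CqNL-6_009043 and 215 ± 50.1 CPM in root against 41.1 ± 2.89 in leaf for CqNL-6_016987. Tetraketide alpha-pyrone reductase 1, an enzyme of sporopollenin in Arabidopsis, stood at 17.8 ± 2.19 CPM in leaf against 8.30 ± 0.852 in root (CqNL-6_054289, log2 fold change -1.09 ± 0.14, adjusted p = 4.62e-06). Of carpel and floral organ factors 4 of 7 tested genes, from 17 listed, were higher in root and 2 in leaf; an AGL11 title had 7.27, 11.4 and 6.61 CPM in root against 0 in each leaf library (CqNL-6_017568), and SPATULA-like genes were called in both directions, CqNL-6_011546 at 5.49 ± 0.834 CPM in root against 0.357 ± 0.309 in leaf and CqNL-6_053695 at 3.49 ± 0.959 CPM in leaf against 1.82 ± 0.421 in root. The second SPATULA-like gene lost its call with the total library size, at -0.19, and without leaf replicate 2, at -0.69. The part of other cells in these values was not tested.

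Genes of carbon fixation were among the most abundant and most leaf-restricted. Rubisco small subunit genes, whose product joins the plastid-encoded large subunit, had 16584, 17795 and 18404 CPM in leaf against 0.601, 0.137 and 0.28 in root for CqNL-6_000831 (chromosome 10, 72404028 to 72407965, plus strand) and 15630.4, 15947 and 16149 CPM in leaf against 0.164, 0.412 and 0.112 in root for CqNL-6_053773 (chromosome 4, 53064808 to 53066912, minus strand). All 3 leaf libraries agreed closely, and 19 and 14 reads were counted over the 3 root libraries. Their log2 fold changes were -15.68 ± 0.29 and -15.97 ± 0.28, with adjusted p of 2.63e-15 and 2.04e-15. Rubisco activase, which frees the enzyme from bound sugar phosphates, had 10660.4, 9678 and 10393 CPM in leaf against 0.109, 0.137 and 0.112 in root (CqNL-6_009974, chromosome 18, 4183563 to 4188139, plus strand, log2 fold change -16.28 ± 0.25, adjusted p = 2.04e-15). Glyceraldehyde-3-phosphate dehydrogenase A of the Calvin cycle had 3921, 3609.9 and 4142 CPM in leaf against 0, 0.183 and 0.056 in root (CqNL-6_048342, log2 fold change -15.34 ± 0.29, adjusted p = 2.63e-15). Of 38 Calvin cycle genes 24 of 26 tested genes were higher in leaf and 2 in root, with a median log2 fold change of -14.29, and the list took 8.40% ± 0.133 of leaf reads and 0.0647% ± 0.00379 of root reads. The exact two-sided permutation test over the 6 libraries gave p = 0.1, the smallest value that 3 against 3 libraries allow. The member of the highest level on the root side was titled fructose-bisphosphate aldolase 3, with 199, 187 and 186 CPM in root against 71.7, 63.2 and 61.3 in leaf (CqNL-6_041068, log2 fold change 1.54 ± 0.11, adjusted p = 2.97e-09), so that this chloroplast-titled aldolase ran against its list without overlap.

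Photosystem proteins followed. Oxygen-evolving enhancer protein 1, which shields the manganese cluster of photosystem II, had 5235, 5260.0 and 5769.8 CPM in leaf against 1.04, 0.732 and 0.896 in root (CqNL-6_044405, log2 fold change -12.57 ± 0.21, adjusted p = 2.04e-15). The antenna protein CP26 had 4694, 4829.8 and 5186 CPM in leaf against 0.437, 0.229 and 0.112 in root (CqNL-6_025018, log2 fold change -14.17 ± 0.25, adjusted p = 2.04e-15). Leaf libraries lay far above root libraries for both, yet each root library held reads of each. The median log2 fold change of the 40 tested members was -11.76 (-11.71 with genes at 0 reads at their bound). Photosystem I subunit XI had 2068, 2442 and 2529.7 CPM in leaf against 0, 0.0458 and 0 in root (CqNL-6_015357, a ratio of 136574 with a 95% counting interval of 24512 to 5394440.0), and the photosystem II 10 kDa polypeptide had 2249, 2846 and 2612 CPM in leaf against 0.0546, 0.0458 and 0 in root (CqNL-6_001210, a ratio of 74782 with a 95% counting interval of 20701 to 617504). The 3 members nearest to equality, named after their values were seen, were 2 genes titled PSB27-H2, of which CqNL-6_046014 had 27.5 ± 2.03 CPM in leaf against 3.00 ± 0.505 in root, and chlorophyll a-b binding protein 4 (CqNL-6_022906) with 5.31 ± 1.35 CPM in leaf against 0.904 ± 0.36 in root. Plastocyanin, the soluble carrier to photosystem I, had 2095, 2113 and 2177 CPM in leaf against 0.109, 0.32 and 0.056 in root (CqNL-6_039497, log2 fold change -13.53 ± 0.25, adjusted p = 2.55e-15), and of the photosynthetic electron carriers 7 of 9 tested genes, from 12 listed, were higher in leaf and 0 in root.

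**Figure D2:**
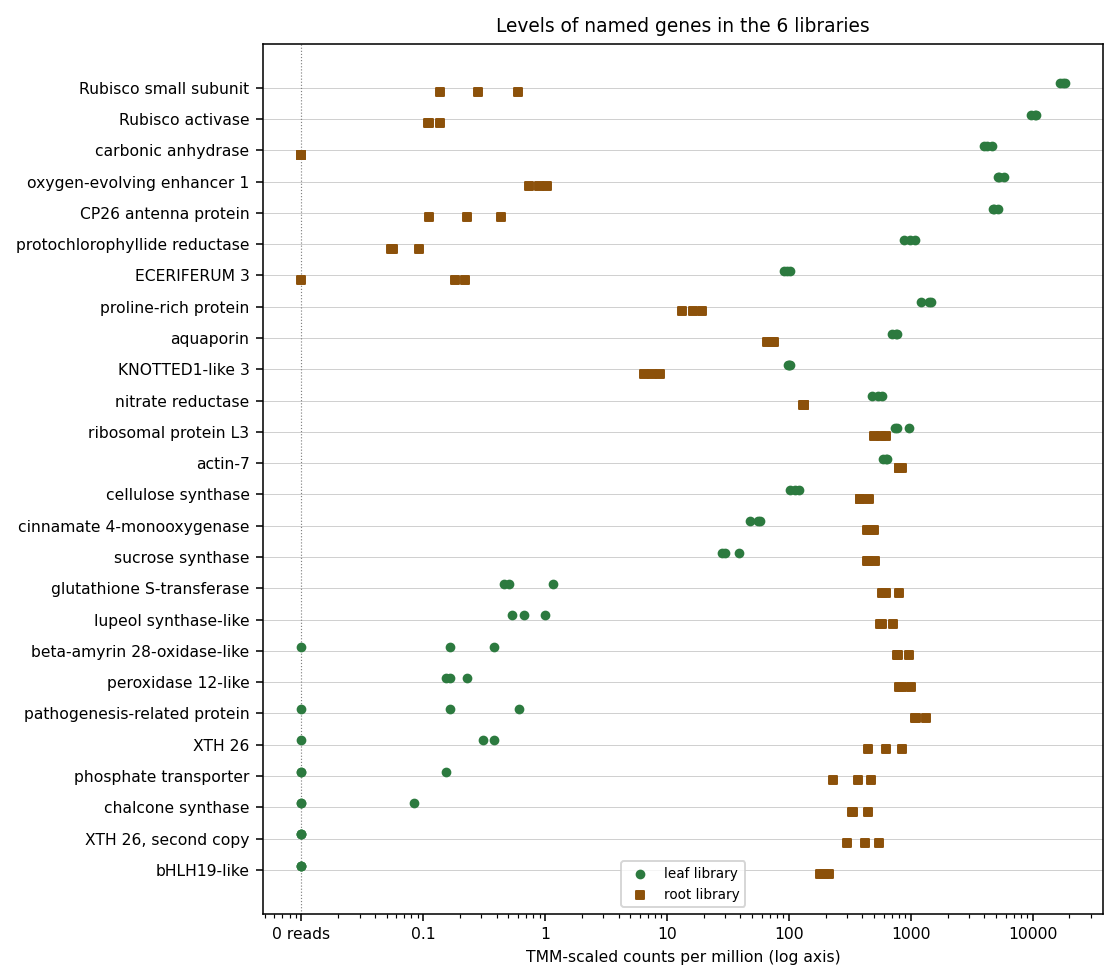
Levels of 26 named genes in each of the 3 leaf libraries (green circles) and 3 root libraries (brown squares), in CPM on a log axis, with libraries at 0 reads drawn on the dotted line. Leaf-high genes lie at the top and root-high genes at the bottom, and the libraries of an organ lie close together relative to the gap between organs, which is narrowest for ribosomal protein L3 and actin-7.

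Chloroplast genes with 0 reads in root included the carbonic anhydrase CqNL-6_044788, which interconverts carbon dioxide and bicarbonate, with 4019.6, 4224 and 4592 CPM in leaf against 0 in each root library, and the ATP synthase gamma chain CqNL-6_025339 with 1381, 1404 and 1469 CPM in leaf against 0 in each root library. The former was at least 82863-fold higher in leaf and the latter at least 27439-fold higher in leaf. A second carbonic anhydrase, CqNL-6_031154, had 4152, 4414 and 4698 CPM in leaf against 0.109, 0.0915 and 0.112 in root (log2 fold change -15.28 ± 0.24, adjusted p = 2.04e-15), so that both copies were high in leaf and at or near 0 in root. Titles outside photosynthesis among the 10 largest leaf differences were auxin-binding protein ABP19a, with 1890.0, 1627 and 1602 CPM in leaf against 0, 0 and 0.056 in root (CqNL-6_019198), and polyamine oxidase, an enzyme that breaks down polyamines, with 1030.2, 1789.7 and 1621 CPM in leaf against 0, 0.0458 and 0 in root (CqNL-6_014339). Both had 1 read over the 3 root libraries, and leaf replicate 1 was the lowest for polyamine oxidase.

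Pigment synthesis was higher in leaf in all tested members. All 10 tested chlorophyll enzymes, from 11 listed, and all 8 tested carotenoid enzymes, from 8 listed, were called, with median log2 fold changes of -4.75 and -4.84. Protochlorophyllide reductase, the light-requiring step of chlorophyll synthesis, had 881, 1072 and 991 CPM in leaf against 0.0546, 0.0915 and 0.056 in root (CqNL-6_022507, log2 fold change -13.64 ± 0.23, adjusted p = 2.04e-15), and its other copy CqNL-6_007045 had 844, 1072 and 963 CPM in leaf against 0.0546, 0.0458 and 0 in root. Violaxanthin de-epoxidase, which makes zeaxanthin in bright light, had 219, 203 and 227 CPM in leaf against 0.273, 0.824 and 0.84 in root (CqNL-6_034042, log2 fold change -8.35 ± 0.21, adjusted p = 2.21e-14). A zeaxanthin epoxidase (CqNL-6_019001) had 181, 190.4 and 208 CPM in leaf against 0 in each root library and was at least 3739-fold higher in leaf. Root libraries were near 0 for each of these genes. PSB27-H1, a repair protein of photosystem II, was also read in leaf alone, with 262, 272 and 281 CPM in leaf against 0 in each root library (CqNL-6_055313, at least 5259-fold higher in leaf).

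Photorespiration, the salvage of the product of Rubisco's oxygenase reaction had most of its tested genes higher in leaf. Peroxisomal 2-hydroxy-acid oxidase had 2202, 2189 and 2439.9 CPM in leaf against 44.2, 44.4 and 46.3 in root (CqNL-6_052987, log2 fold change -5.66 ± 0.13, adjusted p = 1.37e-14). Of 13 tested genes, from 15 listed, 10 were higher in leaf and 2 in root, with a median log2 fold change of -4.99. The hydroxypyruvate reductase title HPR3 ran the other way, with 29.4, 29.5 and 43.9 CPM in root against 0 in each leaf library (CqNL-6_029240, at least 431-fold higher in root).

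Plastid ribosomal proteins fell into separate clusters. Among these 64 of 85 tested genes, from 101 listed, were higher in leaf and 6 in root, and 49 lay below a log2 fold change of -4 while 35 lay within 2 of equality. Members named by a chloroplast title made up 45 of the 49, and genes that had joined the list by their KEGG entry made up 30 of the 35. The latter genes carry no title, and whether their products enter plastids was not tested. Among the 50 titled genes alone 47 were higher in leaf and 0 in root, with a median of -6.46. 30S ribosomal protein S1 had 722, 669 and 758 CPM in leaf against 10.3, 9.38 and 8.51 in root (CqNL-6_047284, log2 fold change -6.25 ± 0.14, adjusted p = 8.25e-15). CqNL-6_005818, the highest gene on the root side, joined by its KEGG entry and had 23.3, 23.9 and 20.4 CPM in root against 18.7, 17.99 and 17.4 in leaf (log2 fold change 0.33 ± 0.11, adjusted p = 0.0178); its call was lost without root replicate 1 or root replicate 2, at log2 fold changes of 0.31 and 0.29.

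Starch enzymes were higher in leaf in 35 of 43 tested genes, from 52 listed, and higher in root in 2, with a median log2 fold change of -2.04. A beta-amylase-like gene, of the family that releases maltose from starch, had 219, 258 and 224 CPM in leaf against 0, 0 and 0.336 in root (CqNL-6_031665, log2 fold change -11.04 ± 0.33, adjusted p = 1.34e-13). Cuticle and wax genes were split: 22 of 31 tested genes, from 49 listed, were higher in leaf and 8 in root. ECERIFERUM 3, which makes the alkanes of stem and leaf wax in Arabidopsis, had 102, 95.9 and 90.4 CPM in leaf against 0.218, 0.183 and 0 in root (CqNL-6_030554, log2 fold change -9.36 ± 0.25, adjusted p = 3.75e-14), whereas 3-ketoacyl-CoA synthase 11, an enzyme that lengthens fatty acids, had 76.5, 78.9 and 74.7 CPM in root against 35.5, 40.2 and 41.7 in leaf (CqNL-6_044870, log2 fold change 0.97 ± 0.10, adjusted p = 5.59e-07). A GDSL esterase/lipase was read in leaf alone, with 233, 175 and 153 CPM in leaf against 0 in each root library (CqNL-6_008049).

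Phytochrome and clock genes were few. The list of phytochrome-associated proteins held 4 genes, all tested, of which 2 copies of phytochrome A-associated F-box protein were higher in root; CqNL-6_023682 had 10.1, 8.33 and 8.68 CPM in root against 1.08, 0.762 and 0.614 in leaf (log2 fold change 3.46 ± 0.25, adjusted p = 5.46e-09). Of 5 tested clock factors, from 6 listed, 3 were higher in leaf and 1 in root, and their median log2 fold change, -0.46, became 0.28 with the total library size. REVEILLE 6-like had 18.7, 17.4 and 20.3 CPM in leaf against 6.39, 6.73 and 7.06 in root (CqNL-6_026073, log2 fold change -1.48 ± 0.13, adjusted p = 6.55e-08). PRR73 had 79.2, 88.9 and 80.4 CPM in leaf against 59.98, 60.4 and 61.8 in root (CqNL-6_051286, log2 fold change -0.45 ± 0.10, adjusted p = 0.000812), a difference that turned to 0.30 with the total library size, and APRR1 had 1.61 ± 0.184 CPM in root against 0.687 ± 0.201 in leaf (CqNL-6_003403, log2 fold change 1.23 ± 0.37, adjusted p = 0.0071).

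The 10 titled genes with the largest fitted difference in root had no read in leaf, but for 1 read of cornifin-A-like. Folds against 0 reads are lower bounds, so the order among such genes, and against genes that leaf did hold, depends on how 0 reads are treated. A xyloglucan endotransglucosylase/hydrolase of title number 26, an enzyme that cuts and rejoins wall xyloglucan, had 297, 419 and 553 CPM in root against 0 in each leaf library (CqNL-6_033784, chromosome 8, 2787021 to 2788997, minus strand, at least 5360.0-fold higher in root, adjusted p = 4.37e-12). A fructan 6-exohydrolase-like gene, of the invertase family, had 281, 327 and 479.6 CPM in root against 0 in each leaf library (CqNL-6_003596, chromosome 11, 5669384 to 5673944, plus strand, at least 4570.1-fold higher in root). A peroxidase 57-like gene had 203, 211 and 241 CPM in root against 0 in each leaf library (CqNL-6_037151, at least 2764-fold higher in root). All root libraries were far above the leaf libraries, and root replicate 3 was the highest for each. The transcription factor bHLH19-like had 192, 181 and 213 CPM in root against 0 in each leaf library (CqNL-6_013515, at least 2473-fold higher in root), and a probable mannitol dehydrogenase had 140.3, 135 and 181 CPM in root against 0 in each leaf library (CqNL-6_013165). The remaining titles of the 10 were the putative lipid-binding proteins AIR1B and AIR1, a probable sesquiterpene synthase, an aldehyde dehydrogenase and cornifin-A-like. They had mean levels of 144, 113, 111, 102 and 377 CPM in root.

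**Figure D3:**
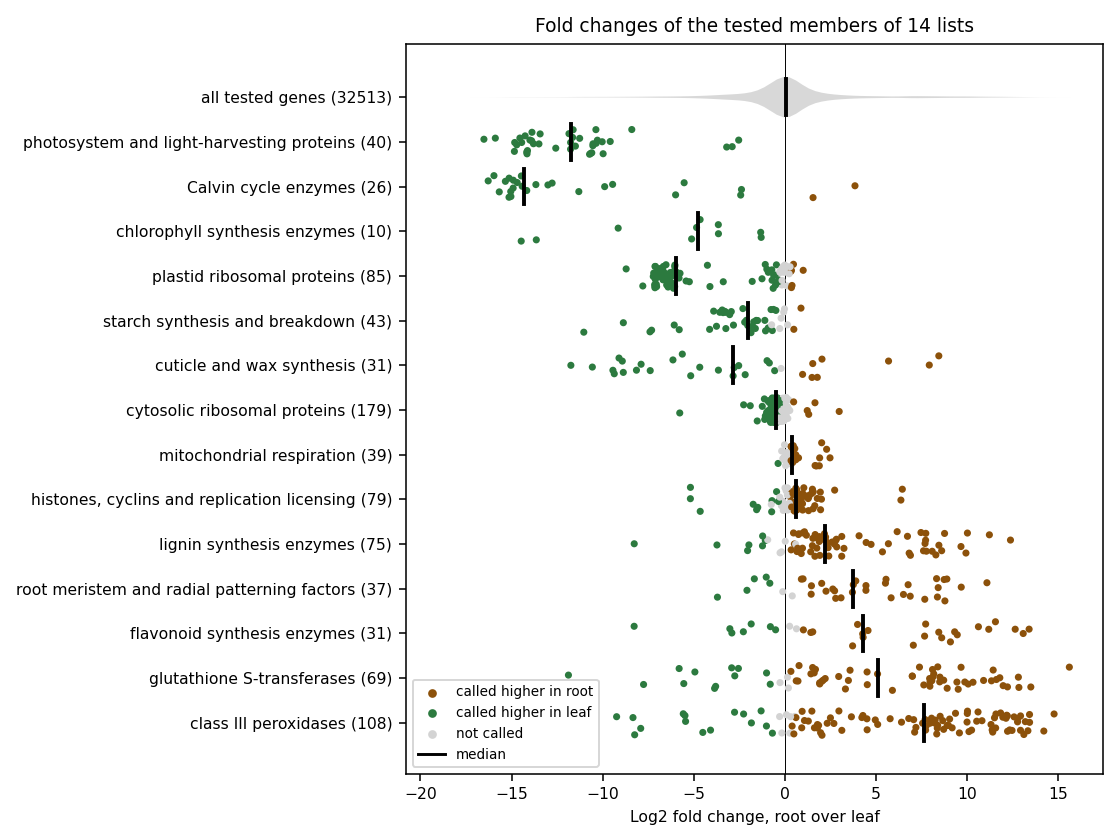
Log2 fold change of root over leaf for the tested members of 14 gene lists, with the number tested in parentheses, and for all 32513 tested genes at the top as a grey density. Points are genes (brown called higher in root, green called higher in leaf, light grey not called), and black bars are medians; for genes with 0 reads in an organ the fitted value depends on the prior count. Photosystem members lie near -12, plastid ribosomal proteins in clusters near -6 and near 0, cytosolic ribosomal proteins just below 0, and peroxidases spread up to about 15.

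Class III peroxidases, secreted enzymes that build lignin and act on reactive oxygen in the wall, were higher in root. Of 161 genes in this family 87 of 108 tested genes were higher in root and 15 in leaf, with a median log2 fold change of 7.63 (5.90 with genes at 0 reads at their bound). Of the 108, 25 had 0 reads in leaf and could pass the filter only through root, and 1 had 0 reads in root. Peroxidase reads are summed over the whole list below. The reads of the 161 genes made up 1.07% ± 0.0955 of a root library and 0.0493% ± 0.00425 of a leaf library. This difference also reached p = 0.1 in the exact permutation test, the smallest possible. Peroxidase 12-like had 799, 851 and 999 CPM in root against 0.167, 0.152 and 0.23 in leaf (CqNL-6_002703, chromosome 16, 40361615 to 40387389, minus strand, log2 fold change 12.17 ± 0.23, adjusted p = 2.55e-15), and another peroxidase 57-like gene had 672, 603 and 749 CPM in root against 0.0835, 0.152 and 0 in leaf (CqNL-6_012781, a ratio of 8514 with a 95% counting interval of 2913 to 41288). On the leaf side, the highest was CqNL-6_015034, an untitled gene of the peroxidase KEGG entry, with 101, 99.5 and 109 CPM in leaf against 0.437, 0.183 and 0.336 in root (log2 fold change -8.34 ± 0.19, adjusted p = 9.21e-15). Its root libraries were all near 0.

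Genes of lignin and cellulose synthesis were mostly higher in root as well. Of 75 tested lignin genes, from 116 listed, 63 were higher in root and 7 in leaf, with a median log2 fold change of 2.21. Among the 75, 9 had 0 reads in leaf and could pass the filter only through root, and 1 had 0 reads in root. Trans-cinnamate 4-monooxygenase, the second enzyme of the phenylpropanoid pathway, had 469.6, 439.8 and 495 CPM in root against 57.6, 56.01 and 48.3 in leaf (CqNL-6_003494, log2 fold change 3.12 ± 0.12, adjusted p = 2.25e-12). An untitled gene with the KEGG entry of caffeic acid 3-O-methyltransferase had 406, 371 and 456 CPM in root against 50.2, 58.99 and 62.5 in leaf (CqNL-6_025107, log2 fold change 2.84 ± 0.13, adjusted p = 1.51e-11). Every root library exceeded every leaf library in both. A caffeoylshikimate esterase-like gene was higher in leaf, with 51.6 ± 6.85 CPM in leaf against 24.5 ± 2.11 in root (CqNL-6_000827, log2 fold change -1.08 ± 0.12, adjusted p = 9.89e-07). Of cellulose synthases, endoglucanases and COBRA proteins 32 of 37 tested genes, from 60 listed, were higher in root and 2 in leaf. The untitled cellulose synthase CqNL-6_045829 had 385, 386 and 451 CPM in root against 103, 122 and 113 in leaf (log2 fold change 1.86 ± 0.12, adjusted p = 8.72e-10). Cellulose synthase-like proteins G were divided, G2 with 411 ± 46.1 CPM in root against 18.97 ± 0.627 in leaf (CqNL-6_046561, log2 fold change 4.44 ± 0.13, adjusted p = 1.09e-13) and G3 with 27.02 ± 3.05 CPM in leaf against 5.99 ± 1.30 in root (CqNL-6_004657, log2 fold change -2.18 ± 0.16, adjusted p = 5.49e-09). The G proteins joined this list by their title, and whether they make cellulose was not tested.

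Proteins that loosen or remodel the wall had members of each organ. Of the 25 listed expansins, proteins that let cell walls slip during growth, 18 were tested, and 11 of these had 0 reads in leaf and so could pass only through root. Among the 18, 13 were higher in root and 5 in leaf, with a median log2 fold change of 9.63 (6.29 with genes at 0 reads at their bound). Expansin-A7-like, a title of root hair expansins in Arabidopsis, had 119.8, 152 and 207 CPM in root against 0, 0.305 and 0 in leaf (CqNL-6_005100, log2 fold change 10.47 ± 0.39, adjusted p = 1.77e-12), while expansin-A1 had 127, 139.8 and 126 CPM in leaf against 14.9, 18.1 and 18.7 in root (CqNL-6_024132, log2 fold change -2.93 ± 0.12, adjusted p = 4.82e-12). Among xyloglucan endotransglucosylases 21 of 41 tested genes, from 54 listed, were higher in root and 18 in leaf. The other copy of title number 26, CqNL-6_031396, had 449, 620.2 and 852 CPM in root against 0, 0.381 and 0.307 in leaf (log2 fold change 11.36 ± 0.37, adjusted p = 4.27e-13). CqNL-6_047653 had 544, 504 and 715 CPM in root against 1.92, 1.45 and 0.921 in leaf (log2 fold change 8.69 ± 0.23, adjusted p = 3.45e-14), and the untitled CqNL-6_016259 had 142 ± 37.8 CPM in leaf against 76.4 ± 9.02 in root (log2 fold change -0.89 ± 0.16, adjusted p = 0.000168), a call lost with the total library size at -0.14. Extensins and proline-rich wall proteins were evenly divided, 12 higher in root and 12 in leaf of 28 tested, from 43 listed. The highest members were both titled proline-rich protein precursor and were higher in leaf, CqNL-6_051859 with 1452, 1397 and 1213 CPM in leaf against 19.4, 16.3 and 13.3 in root (log2 fold change -6.37 ± 0.17, adjusted p = 4.1e-14) and CqNL-6_031102 with 1068, 1058 and 941 CPM in leaf against 19.9, 16.9 and 12.1 in root.

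Suberin, a polyester of root barriers, uses omega-hydroxylases, reductases and feruloyl transferases. Of its 89 listed genes 22 of 38 tested genes were higher in root and 14 in leaf. Of the 38, 9 had 0 reads in leaf and could pass the filter only through root, and 3 had 0 reads in root. The feruloyl transferase entry was represented by CqNL-6_032111, with 194, 238 and 241 CPM in root against 0, 0.0762 and 0 in leaf (a ratio of 8571 with a 95% counting interval of 1538 to 338580.0). A cytochrome P450 86B1-like gene was read in leaf alone, with 82.1, 75.1 and 64.9 CPM in leaf against 0 in each root library (CqNL-6_031973, at least 1428-fold higher in leaf). Other genes share this title, and reads of near copies may be counted for either.

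Transporters showed members of each organ. Of 76 tested genes of nitrate, ammonium and NRT1/PTR transport and nitrate reduction, from 118 listed, 32 were higher in root and 36 in leaf. The median log2 fold change was -0.13, and 0.62 with the total library size. Nitrate reductase, the first step of nitrate assimilation, was higher in leaf in both copies, with 535, 579 and 479.7 CPM in leaf against 133, 129.6 and 133 in root for CqNL-6_001554 (log2 fold change -2.01 ± 0.11, adjusted p = 1.95e-10) and 449.8, 453 and 403 CPM in leaf against 215, 217 and 244 in root for CqNL-6_024690 (log2 fold change -0.95 ± 0.11, adjusted p = 1.15e-06). The call of the second copy was lost with the total library size, at -0.21. Nitrite reductase, the next step, had 425, 390.2 and 436 CPM in root against 397, 224 and 248 in leaf (CqNL-6_022471, log2 fold change 0.53 ± 0.17, adjusted p = 0.0118); leaf replicate 1 lay within the range of the root libraries, so that the groups overlapped, and the call was lost without leaf replicate 2 or 3, at 0.39 and 0.45. Of phosphate and sulfate transporters 18 of 34 tested genes, from 49 listed, were higher in root and 10 in leaf. The KEGG entry of phosphate transporters held CqNL-6_040782 with 228, 372 and 473 CPM in root against 0, 0.152 and 0 in leaf (a ratio of 6816 with a 95% counting interval of 1887 to 56286) and CqNL-6_028444 with 189.9, 293 and 389.6 CPM in root against 0, 0.152 and 0 in leaf. These phosphate transporters had reads in 1 leaf library alone, 2 each. The sulfate transporter entry had CqNL-6_031310 with 157 ± 25.99 CPM in leaf against 94.6 ± 12.4 in root (log2 fold change -0.73 ± 0.13, adjusted p = 0.000165, and 0.01 with the total library size).

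Metal and water transport genes were called in both directions. Of iron and zinc genes 16 of 22 tested genes, from 44 listed, were higher in root and 6 in leaf. Ferritin-3, the iron store of plastids, was higher in leaf with 568, 116 and 176 CPM in leaf against 23.2, 22.3 and 19.6 in root (CqNL-6_039834, log2 fold change -3.72 ± 0.43, adjusted p = 1.56e-06), and leaf replicate 1 lay well above the other leaf libraries. Of potassium and sodium transporters 26 of 46 tested genes, from 93 listed, were higher in root and 12 in leaf. Potassium transporter 4 had 108, 122 and 144 CPM in root against 21.9, 23.9 and 25.5 in leaf (CqNL-6_045797, log2 fold change 2.39 ± 0.13, adjusted p = 1.22e-10), and a potassium channel beta subunit had 108 ± 9.68 CPM in leaf against 67.3 ± 7.85 in root (CqNL-6_050374, log2 fold change -0.68 ± 0.11, adjusted p = 7.15e-05), which became 0.07 with the total library size. Aquaporins, the water channels, had 19 genes higher in root and 11 in leaf of 31 tested, from 46 listed. CqNL-6_032512 of the plasma membrane entry had 768, 762 and 699 CPM in leaf against 72.4, 66.2 and 74.9 in root (log2 fold change -3.38 ± 0.12, adjusted p = 6.57e-13), and CqNL-6_020548 of the tonoplast entry had 723, 680.1 and 784 CPM in root against 353, 423 and 399.9 in leaf (log2 fold change 0.89 ± 0.11, adjusted p = 3.87e-06).

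Auxin genes were more often higher in root: 79 of 127 tested genes, from 181 listed, were higher in root and 33 in leaf. Of the 127, 13 had 0 reads in leaf and could pass the filter only through root, and 4 had 0 reads in root. The GH3.6 title, an enzyme that conjugates auxin to amino acids, had 167, 174 and 206 CPM in root against 2.42, 4.65 and 5.91 in leaf (CqNL-6_006972, log2 fold change 5.38 ± 0.21, adjusted p = 3.05e-12), and an auxin-induced beta-glucosidase had 189.9, 209.9 and 279.9 CPM in leaf against 1.42, 1.01 and 1.51 in root (CqNL-6_026235, log2 fold change -7.44 ± 0.21, adjusted p = 6.25e-14). Cytokinin and gibberellin genes were evenly divided, 17 higher in root and 18 in leaf of 43 tested from 77 listed, and their median of -0.20 became 0.54 with the total library size. A LOG enzyme, which frees active cytokinin, had 24.1, 41.7 and 52.8 CPM in root against 13.9, 18.4 and 16.05 in leaf (CqNL-6_032576, log2 fold change 1.29 ± 0.22, adjusted p = 6.96e-05), and the DELLA entry gene CqNL-6_036417 had 52.1, 47.9 and 55.97 CPM in leaf against 42.3, 39.6 and 39.8 in root (log2 fold change -0.36 ± 0.10, adjusted p = 0.00569), 0.39 with the total library size. Ethylene synthesis and ERF factors had 56 genes higher in root and 16 in leaf of 80 tested, from 111 listed. Of the 80, 14 had 0 reads in leaf and could pass the filter only through root. RAP2-3, an ERF of low-oxygen responses in Arabidopsis, had 133, 144 and 178 CPM in root against 36.6, 44.2 and 42.9 in leaf (CqNL-6_043800, log2 fold change 1.87 ± 0.13, adjusted p = 3.12e-09). An ACC oxidase entry gene, CqNL-6_029138, had 154, 258 and 259 CPM in leaf against 106, 124 and 130.0 in root (log2 fold change -0.90 ± 0.17, adjusted p = 0.000173), a call lost with the total library size at -0.15.

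Defence and detoxification genes were high in root. Of 69 tested chitinases and pathogenesis-related proteins, from 155 listed, 55 were higher in root and 9 in leaf. Among these tested genes 10 had 0 reads in leaf and could pass the filter only through root, and 1 had 0 reads in root. A pathogenesis-related protein had 1093, 1087 and 1335 CPM in root against 0.167, 0.61 and 0 in leaf (CqNL-6_026278, chromosome 6, 18534435 to 18536556, minus strand, log2 fold change 12.08 ± 0.31, adjusted p = 2.98e-14), and a second gene of this title had 830.0, 803 and 967 CPM in root against 0.25, 0.152 and 0.154 in leaf (CqNL-6_030904, chromosome 6, 14262092 to 14263901, minus strand, log2 fold change 12.14 ± 0.22, adjusted p = 2.36e-15). Glutathione S-transferases, which couple glutathione to reactive compounds, had 54 genes higher in root and 12 in leaf of 69 tested from 103 listed, with a median log2 fold change of 5.08 (4.52 with genes at 0 reads at their bound). Of these 69, 15 had 0 reads in leaf and could pass the filter only through root, and 1 had 0 reads in root. Genes of one stretch of chromosome 3 led this family, CqNL-6_008353 (from 19217076 to 19225063) with 582, 629 and 800.4 CPM in root against 0.501, 0.457 and 1.15 in leaf (log2 fold change 9.87 ± 0.25, adjusted p = 2.12e-14) and CqNL-6_008346 (from 19114612 to 19121329) with 414, 429.9 and 478 CPM in root against 2.17, 1.07 and 2.15 in leaf (log2 fold change 7.94 ± 0.19, adjusted p = 1.83e-14). A U17-like member went the other way, with 154, 138 and 185 CPM in leaf against 0, 0.0915 and 0 in root (CqNL-6_012702, a ratio of 4618 with a 95% counting interval of 1278 to 38141).

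Specialised metabolism showed members of near-complete restriction to root. Of 76 flavonoid genes 22 of 31 tested genes were higher in root and 7 in leaf, with a median of 4.29 (4.27 with genes at 0 reads at their bound). Among the 31, 9 had 0 reads in leaf and could pass the filter only through root, and 1 had 0 reads in root. Chalcone synthase, the entry enzyme of the pathway, was represented by CqNL-6_031615 with 328, 334 and 442 CPM in root against 0.0835, 0 and 0 in leaf (a ratio of 13927 with a 95% counting interval of 2499 to 550125) and by CqNL-6_045821 with 115, 113 and 66.9 CPM in leaf against 56.9, 71.2 and 78.6 in root (log2 fold change -0.51 ± 0.18, adjusted p = 0.0167). The groups overlapped in the second gene, whose value was 0.23 with the total library size, and whose call was lost without leaf replicate 1 or 2 or root replicate 1. Of triterpene and saponin genes 10 of 14 tested genes, from 33 listed, were higher in root and 4 in leaf. A lupeol synthase-like cyclase on chromosome 11 from 8294676 to 8323474 had 579, 556 and 713 CPM in root against 0.668, 0.533 and 0.998 in leaf (CqNL-6_003885, log2 fold change 9.70 ± 0.21, adjusted p = 6.67e-15), and a beta-amyrin 28-oxidase-like cytochrome P450 on the same chromosome from 8424290 to 8428052 had 792, 766 and 958 CPM in root against 0.167, 0.381 and 0 in leaf (CqNL-6_003892, log2 fold change 12.10 ± 0.29, adjusted p = 1.38e-14). Between them, from 8409384 to 8419104, lies a beta-amyrin synthase-like gene, named after its values were seen, with 14.8, 12.5 and 8.68 CPM in leaf against 0.0546, 0.0458 and 0 in root (CqNL-6_003891, a ratio of 345 with a 95% counting interval of 95.1 to 2860.2). Squalene epoxidase 3-like, which supplies sterols and triterpenes alike, had 71.2 ± 2.37 CPM in leaf against 9.24 ± 0.475 in root for CqNL-6_011704 (log2 fold change -2.95 ± 0.11, adjusted p = 1.66e-12).

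Betalains, the red and yellow pigments that replace anthocyanins in this plant order, need a tyrosine-hydroxylating cytochrome P450 of the 76AD group and a DOPA 4,5-dioxygenase. Of 10 listed betalain genes 2 were tested. Both of these, with 76AD1-like titles, were higher in root, CqNL-6_001481 with 82.98, 80.6 and 104 CPM in root against 2.59, 3.81 and 2.69 in leaf (log2 fold change 4.87 ± 0.17, adjusted p = 7.35e-13) and CqNL-6_025141 with 49.98, 42.9 and 64.02 CPM in root against 5.01, 8.31 and 6.60 in leaf (log2 fold change 2.97 ± 0.18, adjusted p = 7.51e-10). The KEGG entry titled 4,5-dioxygenase-like protein had 8 tested genes from 13, all higher in root. These 8 genes lie outside the betalain list and are described below. Glycine betaine genes showed no common direction, with 5 of 12 tested genes, all of those listed, higher in root and 4 in leaf. Phosphoethanolamine N-methyltransferase, which makes the choline precursor, had 192, 186 and 199.9 CPM in leaf against 72.5, 75.3 and 55.3 in root (CqNL-6_056988, log2 fold change -1.51 ± 0.12, adjusted p = 2.35e-08), whereas betaine aldehyde dehydrogenase, the last step, had 166, 168 and 212 CPM in root against 68.9, 68.7 and 83.9 in leaf (CqNL-6_005716, log2 fold change 1.30 ± 0.13, adjusted p = 1.89e-07).

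Genes that all cells use differed little in size but often passed the test. Cytosolic ribosomal proteins were called higher in leaf in 128 of 179 tested genes, from 203 listed, and in root in 5, with a median log2 fold change of -0.48, but with the total library size 83 were higher in root and 6 in leaf and the median was 0.27. Their share of the counted reads was 2.68% ± 0.373 in leaf and 3.22% ± 0.400 in root, with overlapping libraries and p = 0.2 in the exact permutation test. The direction of this list thus depends on the scaling. Ribosomal protein L3 had 965, 774 and 736 CPM in leaf against 621, 572 and 495 in root (CqNL-6_016998, log2 fold change -0.55 ± 0.13, adjusted p = 0.00138), and 0.20 with the total library size. CqNL-6_010835, of the acidic protein P0 entry, had 942, 722 and 674 CPM in leaf against 689.6, 628 and 544 in root with overlapping groups (log2 fold change -0.33 ± 0.14, adjusted p = 0.0438), a call lost without leaf replicate 1 or 2 or root replicate 2 or 3. An L18a-like gene was higher in root, with 13.8 ± 1.45 CPM in root against 4.37 ± 1.04 in leaf (CqNL-6_019268, log2 fold change 1.65 ± 0.18, adjusted p = 7.63e-07).

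Mitochondrial respiration, cell division and cytoskeleton genes were higher in root under both scalings, by their medians. Of 39 tested genes of mitochondrial respiration, from 52 listed, 23 were higher in root and 1 in leaf, with a median log2 fold change of 0.41. Both copies of the mitochondrial ATP synthase beta subunit were called, CqNL-6_036461 with 688, 646 and 628 CPM in root against 441, 421 and 434 in leaf (log2 fold change 0.60 ± 0.10, adjusted p = 9.04e-05) and CqNL-6_046485 with 565, 511 and 521 CPM in root against 389, 381 and 393 in leaf (log2 fold change 0.46 ± 0.10, adjusted p = 0.000924). The epsilon subunit was called higher in leaf, with 78.1 ± 9.53 CPM in leaf against 60.3 ± 2.20 in root (CqNL-6_004903, log2 fold change -0.38 ± 0.11, adjusted p = 0.00657), and 0.37 with the total library size. Members past a log2 fold change of 1 included succinate dehydrogenase subunits, such as CqNL-6_008548 with 62.4, 65.7 and 75.6 CPM in root against 14.7, 12.2 and 14.8 in leaf (log2 fold change 2.29 ± 0.12, adjusted p = 1.46e-10), named after its values were seen. Histones, cyclins and replication licensing factors had 51 of 79 tested genes, from 98 listed, higher in root and 10 in leaf, with a median of 0.60. Histone genes close together on chromosome 11 were called in both directions: CqNL-6_003367 of the H2B entry had 288, 270.2 and 239 CPM in root against 153, 144 and 153 in leaf (log2 fold change 0.83 ± 0.11, adjusted p = 5.14e-06), CqNL-6_003366 of the H2A entry had 265, 227 and 208 CPM in root against 146, 114 and 131 in leaf (log2 fold change 0.84 ± 0.12, adjusted p = 1.87e-05), and CqNL-6_003363 of the H2B entry had 125, 122 and 129.6 CPM in leaf against 96.96, 94.5 and 83.1 in root (log2 fold change -0.46 ± 0.10, adjusted p = 0.000916), which became 0.29 with the total library size. Of 35 tested tubulins and actins, from 36 listed, 24 were higher in root and 8 in leaf. Actin-7 had 801, 799 and 844 CPM in root against 622, 595 and 633 in leaf (CqNL-6_010430, log2 fold change 0.40 ± 0.10, adjusted p = 0.0027), and tubulin alpha-2 had 1495, 1461 and 1492 CPM in leaf against 1056, 983 and 979 in root (CqNL-6_016414, log2 fold change -0.56 ± 0.11, adjusted p = 0.000247), which turned to 0.19 with the total library size.

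Low-oxygen and fermentation genes were higher in root in 15 of 21 tested genes, from 23 listed, and in leaf in 3, with a median log2 fold change of 1.52. Sucrose synthase, which splits sucrose at the entry of sugar into metabolism of non-green tissue, had 440.0, 449 and 511 CPM in root against 29.9, 38.9 and 28.5 in leaf for CqNL-6_030441 (log2 fold change 3.85 ± 0.14, adjusted p = 1.54e-12) and 230.1, 245 and 275 CPM in root against 11.2, 12.7 and 8.06 in leaf for CqNL-6_032449 (log2 fold change 4.55 ± 0.16, adjusted p = 8.31e-13). Root libraries exceeded leaf libraries throughout. Alcohol dehydrogenase-like 7 was higher in leaf, with 30.03 ± 3.03 CPM in leaf against 6.29 ± 0.207 in root (CqNL-6_039452, log2 fold change -2.26 ± 0.13, adjusted p = 2.56e-10).

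**Figure D4:**
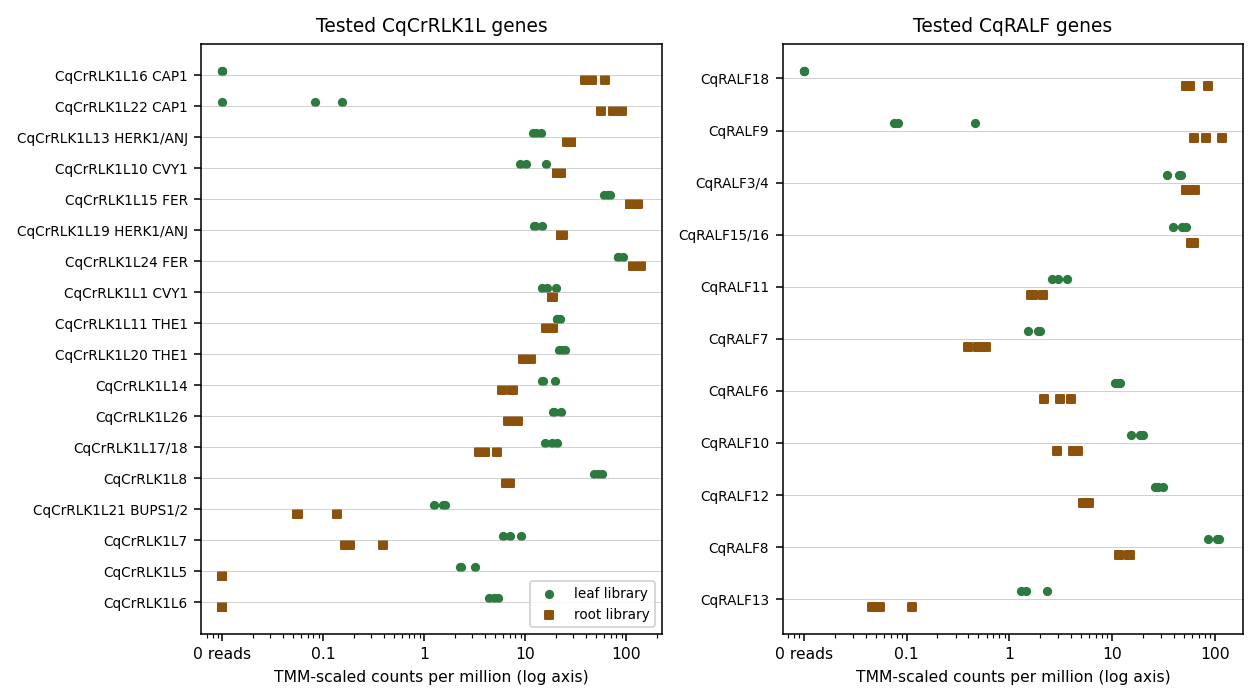
Levels of the tested CqCrRLK1L genes (left) and CqRALF genes (right) in each leaf library (green circles) and root library (brown squares), in CPM on a log axis, ordered by log2 fold change with root-high genes at the top; libraries at 0 reads are drawn at the left end. CqCrRLK1L16, CqCrRLK1L22, CqRALF18 and CqRALF9 were read almost only in root, and CqCrRLK1L5 and CqCrRLK1L6 only in leaf.

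The receptor kinases CqCrRLK1L and their peptide ligands CqRALF act at the cell surface, where in Arabidopsis FERONIA and its relatives sense RALF peptides and the wall. Of 24 CqCrRLK1L loci 18 were tested, 7 of them higher in root and 10 in leaf, and of 16 CqRALF loci 11 were tested, 4 higher in root and 7 in leaf. The FER copies CqCrRLK1L15 and CqCrRLK1L24 had 110.1, 110.3 and 132 CPM in root against 59.7, 69.4 and 65.95 in leaf (log2 fold change 0.85 ± 0.11, adjusted p = 5.41e-06) and 117, 128 and 139.8 CPM in root against 83.7, 82.5 and 93.97 in leaf (log2 fold change 0.56 ± 0.11, adjusted p = 0.00025). They had the most reads of the tested receptors, and every root library lay above every leaf library. Per gene length, as mean FPKM, they stood at 64.7 and 70.5 in root, against 22.7 for the CAP1 copy CqCrRLK1L16. The other CAP1 copy, CqCrRLK1L22, had more reads in root, and its FPKM is not given here. The CAP1 copies were confined to root but for 3 reads: CqCrRLK1L16 had 38.7, 45.8 and 61.6 CPM in root against 0 in each leaf library (at least 615-fold higher in root), and CqCrRLK1L22 had 56.97, 73.8 and 90.1 CPM in root against 0.0835, 0 and 0.154 in leaf (a ratio of 934 with a 95% counting interval of 319 to 4532). HERK1/ANJ copies CqCrRLK1L13 and CqCrRLK1L19 were higher in root, with log2 fold changes of 1.08 ± 0.12 and 0.81 ± 0.12 (adjusted p = 6.76e-07 and 1.78e-05), as was CqCrRLK1L10 of CVY1 with 0.87 ± 0.17 (adjusted p = 0.00034). CqCrRLK1L1 of CVY1 had 18.8, 18.6 and 18.3 CPM in root against 16.5, 14.6 and 19.96 in leaf and did not pass the test (log2 fold change 0.12 ± 0.13, adjusted p = 0.402), but did with the total library size, at 0.87. Leaf-high receptors included CqCrRLK1L8, with 52.2, 57.3 and 47.5 CPM in leaf against 6.83, 6.41 and 7.06 in root (log2 fold change -2.95 ± 0.12, adjusted p = 5.43e-12), and CqCrRLK1L5, CqCrRLK1L6 and CqCrRLK1L7, neighbours on chromosome 10 of the deposited NL-6 table, whose numbering may differ from that of other quinoa assemblies. These 3 had 99, 188 and 279 reads in leaf and 0, 0 and 14 in root. CqCrRLK1L14, CqCrRLK1L26, the joint locus of CqCrRLK1L17 and CqCrRLK1L18, CqCrRLK1L20 of THE1 and CqCrRLK1L21 of BUPS1/2 had log2 fold changes of -3.98 to -1.20. CqCrRLK1L11 of THE1 had 20.7, 20.5 and 21.96 CPM in leaf against 18.8, 16.3 and 15.96 in root (log2 fold change -0.31 ± 0.12, adjusted p = 0.0259), a call lost without leaf replicate 2 or 3 or root replicate 2 or 3, and 0.44 with the total library size. Untested loci had at most 27 reads in an organ.

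Among peptides, CqRALF18 had 52.4, 57.2 and 85.6 CPM in root against 0 in each leaf library (chromosome 3, 18851409 to 18851702, minus strand, at least 819-fold higher in root) and CqRALF9 had 63.2, 82.3 and 118 CPM in root against 0.0835, 0.0762 and 0.461 in leaf (log2 fold change 8.66 ± 0.37, adjusted p = 8.46e-12). The joint loci of CqRALF3 and CqRALF4 and of CqRALF15 and CqRALF16 were slightly higher in root, with log2 fold changes of 0.44 ± 0.13 and 0.38 ± 0.12. CqRALF8 had 86.5, 110.0 and 104 CPM in leaf against 11.7, 15.01 and 14.5 in root (log2 fold change -2.86 ± 0.13, adjusted p = 2.27e-11) and CqRALF12 had 26.3, 31.6 and 27.9 CPM in leaf against 5.24, 5.58 and 5.99 in root (log2 fold change -2.35 ± 0.13, adjusted p = 2.08e-10). CqRALF6, CqRALF7, CqRALF10 and CqRALF13 were higher in leaf too, at log2 fold changes of -4.46 to -1.85. CqRALF11 had 3.00, 3.66 and 2.61 CPM in leaf against 1.64, 1.69 and 2.13 in root (log2 fold change -0.77 ± 0.27, adjusted p = 0.0173), a call lost without leaf replicate 2 or root replicate 1 or 2 and with the total library size.

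Root held more genes read in 1 organ alone. With at least 1 read in each replicate of an organ and 0 in all libraries of the other, 2412 genes were read in root alone and 705 in leaf alone. With at least 10 reads in each replicate these were 1368 and 358 genes, and with all libraries thinned to 14031146 reads 2482 and 699. The mean reads of these genes had a median of 21.5 in root and 17.0 in leaf, and 630 and 172 of them had a mean of at least 100 reads. Most were thus sparsely read, and 0 reads allows a level of up to 0.0787 CPM in leaf and 0.0517 CPM in root, that of 3 reads over the 3 libraries. The TMM-corrected sizes were 11982126 to 13121538 reads in leaf and 17852773 to 21846429 in root. Thinning to an equal total does not remove this difference, so root libraries still sampled the bulk of the genes more deeply.

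Genes were also grouped by their KEGG entry alone, with no search words, and each count is over the tested genes of an entry, beside the number of all its genes. Of 321 entries with at least 8 tested genes, 12 had all their tested genes higher in root and 2 had all higher in leaf, and with the total library size these numbers were 30 and 1. The entries of the leaf were the Rubisco small subunit, 8 of 8 tested genes from 9, and the chloroplast protease FTSH, which in Arabidopsis serves the repair of photosystem II, 11 of 11 from 15, or 10 with 1 higher in root under the total library size. The highest FTSH gene had 910.3, 855 and 938 CPM in leaf against 35.5, 36.5 and 43.3 in root (CqNL-6_046827, log2 fold change -4.55 ± 0.13, adjusted p = 8.79e-14). Among the root entries, the YUCCA monooxygenases, which make auxin from indole-3-pyruvate, were higher in root in all of the 13 tested genes, but the entry has 28. Their highest gene had 35.01, 38.5 and 44.98 CPM in root against 0.0835, 1.07 and 0.845 in leaf (CqNL-6_047082, log2 fold change 5.84 ± 0.28, adjusted p = 3.37e-11). The 4,5-dioxygenase-like proteins, whose title is that of the betalain enzyme family, were higher in root in 8 of 8 tested genes from 13, led by CqNL-6_040279 with 323, 326 and 408 CPM in root against 0.167, 0.381 and 0.307 in leaf (log2 fold change 10.22 ± 0.22, adjusted p = 6.99e-15). Every root library lay far above every leaf library there.

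Entries of lignin synthesis among the 12 were caffeoyl-CoA O-methyltransferase, 11 of 11 from 17, and cytochrome P450 98A2-like, 8 of 8 from 10. Their highest genes had 302 ± 23.2 CPM in root against 56.99 ± 6.45 in leaf (CqNL-6_019991, log2 fold change 2.41 ± 0.12, adjusted p = 5.86e-11) and 67.8, 57.5 and 64.5 CPM in root against 19.5, 17.2 and 20.04 in leaf (CqNL-6_035735, log2 fold change 1.74 ± 0.11, adjusted p = 1.55e-09). Protein disulfide isomerases, which fold secreted proteins, were higher in root in 12 of 12 tested genes from 14, with 379.5, 346 and 328 CPM in root against 56.6, 72.8 and 83.5 in leaf for CqNL-6_010364 (log2 fold change 2.31 ± 0.14, adjusted p = 5.82e-10). Non-specific phospholipases C were higher in 9 of 9 from 10, with 44.8 ± 4.38 CPM in root against 5.35 ± 0.936 in leaf for CqNL-6_018930, and actins in 9 of 9, all of their entry, led by actin-7. The other entries each had 8 of 8 tested genes higher in root. These were epsins (from 12) and RABD2 GTPases (from 8) of vesicle traffic and rho GDP-dissociation inhibitors (from 9). G-box-binding bZIP factors (from 8) and a last entry (from 10) completed them. The only informative title of the last entry is cyclin-SDS, which need not hold for all its genes. In this order, the highest genes of these entries had log2 fold changes of 0.49 ± 0.10, 0.96 ± 0.12, 2.00 ± 0.13, 0.83 ± 0.11 and 1.78 ± 0.17.

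Copies on different chromosomes mostly moved together. Among 9226 pairs of tested genes that alone shared 1 best protein match and lay on different chromosomes, both copies were higher in root in 2963 pairs (32.1%) and both higher in leaf in 2548 (27.6%). A call in opposite directions was made in 382 pairs (4.14%), and in 90 pairs (0.976%) where both log2 fold changes reached 1. Across the pairs the log2 fold changes of the copies had a Pearson's r of 0.888, a description of pairs that share their libraries, and reads of near-identical copies may be counted for either. Chlorophyllase, an enzyme that cleaves chlorophyll, had 105, 106 and 123 CPM in leaf against 0.218, 0.0915 and 0.112 in root for CqNL-6_012350 on chromosome 9 and 3.17, 5.72 and 5.10 CPM in root against 0.25, 0.152 and 1.15 in leaf for CqNL-6_004315 on chromosome 2. An acidic glucan endo-1,3-beta-glucosidase had 363, 346 and 279 CPM in leaf against 123, 111 and 120.5 in root for CqNL-6_034285 on chromosome 4 and 22.7, 20.1 and 29.1 CPM in root against 0 in each leaf library for CqNL-6_015172 on chromosome 12. Flavonoid 3'-monooxygenase had 14.6 ± 7.05 CPM in leaf against 1.91 ± 0.38 in root for CqNL-6_005448 and 35.5 ± 3.34 CPM in root against 2.74 ± 1.96 in leaf for CqNL-6_021925, and the RING-H2 protein RHA4a had 306 ± 27.1 CPM in leaf against 15.6 ± 1.17 in root for CqNL-6_004658 and 7.61 ± 0.818 CPM in root against 0.289 ± 0.194 in leaf for CqNL-6_012698. These 4 pairs were named after their values were seen.

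**Figure D5:**
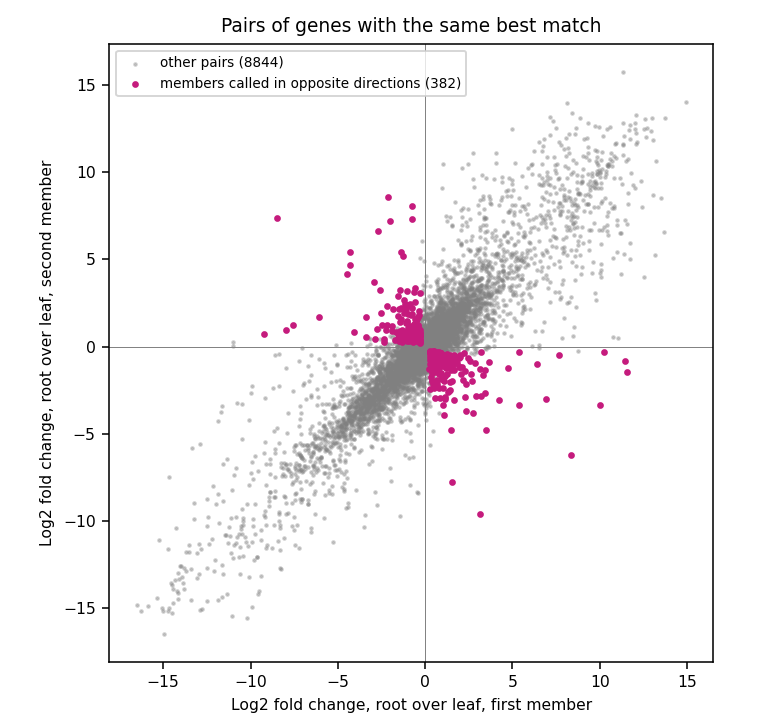
Log2 fold change of root over leaf of the first member (horizontal axis) and second member (vertical axis) of 9226 pairs of genes with the same best protein match on different chromosomes. Grey points are pairs called in the same direction or with a member not called, and pink points are the 382 pairs called in opposite directions; most pairs follow the diagonal.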

How the data were processed

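Purified mRNA of 3 leaf and 3 root libraries was sequenced as paired reads. The authors used HISAT2 2.1.0 for alignment to the NL-6 assembly and HTSeq for the read counts per gene, which they deposited without normalization. The HTSeq version, its strand option and how it treated multiply aligned reads were not given in the sources used here. Reads of near-identical copies may thus be split. The authors also deposited FPKM, counts per kilobase of gene length and per 1e6 reads, used here only to compare genes with each other. The study calls its 3 replicates per tissue independent. Neither the study nor the labels say that replicates came from separate cultures, so p-values measure the spread between these samples.

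Counts were fitted with edgeR 4.0.16 in R 4.3.3 (quasi-likelihood test, TMM scaling, filterByExpr with a minimum of 10 reads, Benjamini-Hochberg adjustment over 32513 genes) on the 6 libraries alone, with no block. A fold against 0 reads was taken against a floor of 3 reads over the 3 libraries, and against 1 to 3 reads it is a ratio with an exact 95% counting interval. Exact permutation tests (scipy 1.17.1) were two-sided. The fit was run on simulated counts of 31772 genes, of which 200 were given a difference. It called 76 of 100 genes with a 2-fold difference, 98 of 100 with a 4-fold difference, and 16 unchanged genes. In the real comparison 74.7% of the tested genes were called. How the fit and its scaling perform when most genes differ was not tested.

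Genes were grouped by search words on the deposited protein-match titles and by KEGG entries of which at least 60% of the titled genes, and at least 2, were in a list. Of 58522 genes 43.5% had a title or an entry, and 0 identifiers matched the RefSeq table, so no sequence is shown. The members and lists were chosen with earlier results of these data known, and search words were corrected and the KEGG extension added after the titles were read. Named were, per direction, the 10 titled genes with the largest called difference, no overlap and at least 100 CPM; per list the 2 called members of highest level and the highest one against the majority; the 5 titled genes per organ with the most reads among those with 0 in the other; all tested CqCrRLK1L and CqRALF genes; and the highest called gene of each KEGG entry named. The alternatives were other scalings, DESeq2 1.42.0, other read filters, more libraries in the fit, a replicate block, a higher fold threshold and each replicate left out.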

Additional observations from a re-analysis of the deposited data

How the results depend on the processing

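With the total library size 20064 genes were higher in root and 6828 in leaf, and 13991 were higher in root past a log2 fold change of 1. Under this scaling 74.6% of the calls were higher in root, against 52.2% with TMM, and the median log2 fold change was 0.79 in place of 0.05. The members called higher in root were then 4 phytochrome-associated proteins, 8 glycine betaine genes and 39 genes of mitochondrial respiration, and 6 cytosolic ribosomal proteins were called higher in leaf. It also turned the sign of the log2 fold change of 11 named genes from negative to positive. A turned sign alone is not a call, and whether these genes were called higher in root is not given here. The values were 0.30 for CqNL-6_051286, 0.01 for CqNL-6_031310, 0.07 for CqNL-6_050374, 0.39 for CqNL-6_036417, 0.20 for CqNL-6_016998, 0.42 for CqNL-6_010835, 0.29 for CqNL-6_003363, 0.19 for CqNL-6_016414, 0.37 for CqNL-6_004903, 0.23 for CqNL-6_045821 and 0.44 for CqCrRLK1L11 (CqNL-6_006913). A log2 threshold of 2 left 5148 genes higher in root and 4779 in leaf. With at least 1 CPM in 3 libraries 3 stomatal genes were higher in root, and with no read filter 7 carpel and floral organ factors were. Leaving out each replicate in turn gave 12064 to 12840 genes higher in root and 10903 to 11256 in leaf, and 2 to 4 members of the seed list higher in root, 4 of them without leaf replicate 2. At least 10 reads in each replicate left 1368 root-only and 358 leaf-only genes. Without the 100 genes with the most reads the leaf shares were 2.32% for photosystem proteins, 0.602% for the Calvin cycle, 0.0642% for peroxidases and 3.32% for cytosolic ribosomal proteins, and the root share of photosystem proteins was 0.0021%.

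With the replicate number as a block 12705 genes were higher in root and 11616 in leaf. Deviations of same-numbered libraries correlated at 0.185, -0.0285 and 0.160, and those of libraries with different numbers at -0.220 to 0.116. Whether same-numbered samples share more than a number was not tested.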
